A study of Mus musculus and Homo sapiens with 10 samples.

Results

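Isolated CTCF peaks are the intervals of a DamID map of CTCF that lie far from any other interval of that map. CTCF is a zinc finger protein that binds DNA and, with the cohesin ring complex, holds the anchors of chromatin loops and the borders of many domains; it also acts as an insulator between enhancers and promoters. An isolated peak was an interval of at most 20 kb with an empty gap of at least 100 kb to the next interval on either side, on chromosomes 1, 2, 3, 5, 7 to 12, 14 to 17 and 20. By this rule 1610 intervals were isolated, of 7993 on these 15 chromosomes and of 10912 in the whole list. The members were chosen by their width and by the gaps beside them, so both are given below as descriptions, without tests.

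The intervals came from HEK293T cells, a human line derived from embryonic kidney, and concern the binding map by Nanopore-DamID. In DamID a chromatin protein is fused to Dam, a bacterial enzyme that methylates adenine in GATC sites close to where the fusion binds; methylated sites are then cut with DpnI and the fragments are read, here on a Nanopore instrument. The 3 samples behind this part of the study were 2 that carried CTCF-DamN126A and 1 that carried DamN126A alone, where N126A is an amino acid change in Dam known to lower its background methylation. All had their fusion or Dam protein induced with 2 µg/mL doxycycline. The remaining samples of the series were mouse N2A cells and are not used here. The labels do not say whether the CTCF-DamN126A samples were separate cultures, and the list does not say which samples or how many entered it. The list gives a chromosome, a start and an end for each interval and no height, score or per-sample value, so the depth behind a peak is unknown and replicates could not be set against each other. Coordinates are given in hg38, counted from 1. Genes and sequence at the peaks were not analysed here.

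Isolated peaks made up 20.1% of the intervals on the 15 chromosomes (exact 95% binomial interval 19.3 to 21.04%). Intervals of this kind on shares cover counting error only and are somewhat too narrow, since neighbouring intervals share a gap. The other 6185 intervals of at most 20 kb had a median smaller gap of 7.53 kb, against 203 kb for isolated peaks, a difference that the rule itself makes. Another 198 intervals were wider than 20 kb, and 32 of these (16.2%, 11.3 to 22.04%) also had empty gaps of at least 100 kb on either side. Raising the gap that defines isolation from 100 kb to 200 kb left 829 peaks, 500 kb left 251, 1000 kb left 69 and 2000 kb left 13.

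The members nearest to the limits show how little separated them from intervals left out. Chromosome 7 held a peak (114526686 to 114533333) with a smaller gap of 100.068 kb, and a pair of peaks (65268630 to 65270987 and 65371354 to 65373718) that faced each other over 100.366 kb. Just outside, 2 intervals on chromosome 16 (86755274 to 86764606 and 86864570 to 86873551) faced each other over 99.963 kb, and 1 on chromosome 8 (52475672 to 52477689) had a smaller gap of 99.898 kb. By width, the last members inside measured 19436, 19690 and 19903 bp, and the first isolated intervals outside measured 20001, 20639 and 21183 bp.

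The median width of isolated peaks was close to that of other intervals at the limits of the rule. Their widths ran from 545 to 19903 bp with a median of 3989.5 bp (95% order-statistic interval 3760.0 to 4157), and the middle of the distribution, from the lower to the upper quartile, spanned 2395 to 6548.5 bp. The other intervals of at most 20 kb had a median of 3845 bp (3738 to 3952), with quartiles of 2249 and 6667 bp. The medians differed by 144.5 bp, with overlapping intervals. When intervals closer than 5 kb were first joined into 1, the difference turned to -538.5 bp, so its direction depended on how close neighbours were counted. With a minimum gap of 200 kb in place of 100 kb it was 527.5 bp, and with 50 kb it was 68.5 bp. Within chromosomes the direction was mixed too. The isolated median was the higher on 8 of 15 chromosomes and the lower on 7.

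In the list as given, the sets differed in the share of very short and of middling intervals. These shares were not recomputed with intervals closer than 5 kb joined, the step that turned the direction of the median difference. Widths of up to 1 kb were found in 31 of 1610 isolated peaks (1.93%, exact 95% interval 1.31 to 2.72%), against 229 of 6185 other intervals (3.70%, 3.25 to 4.20%). Between 2 and 5 kb lay 45.4% of isolated peaks (42.95 to 47.9%), against 41.3% of other intervals (40.06 to 42.5%). Above 10 kb the sets were alike in share, 10.4% of isolated peaks (8.98 to 12.03%) and 10.9% of other intervals (10.2 to 11.8%). DpnI cuts at methylated GATC sites, and the purification used keeps fragments under 10 kb per the labels' protocols, so 168 isolated peaks were wider than any single fragment that step is stated to keep.

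**Figure D1:**
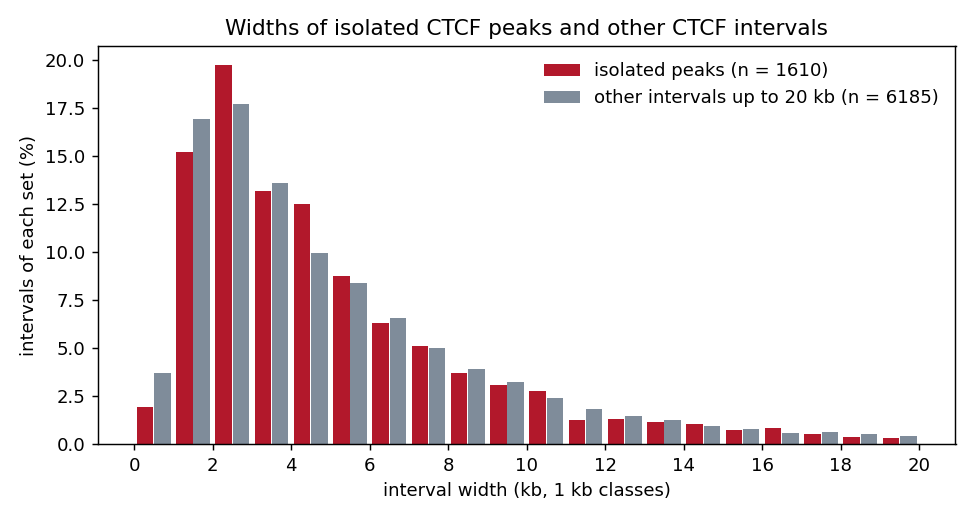
Interval width in 1 kb classes (x axis, kb) and the share of each set in the class (y axis, %), for 1610 isolated peaks and 6185 other intervals of at most 20 kb on the same chromosomes. Both sets peak at 2 to 3 kb, with 19.8% of isolated peaks and 17.7% of other intervals; isolated peaks also have the larger share at 4 to 5 kb, 12.5% against 9.94%, and the smaller share up to 1 kb, 1.93% against 3.70%.

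The share of very short intervals differed between classes of spacing. Of isolated peaks, 1.93% measured up to 1 kb. The share was 2.51% (1.85 to 3.34%) among 1831 intervals with a smaller gap of 10 to 100 kb and a larger one of at least 100 kb. It was 3.65% (2.58 to 5.00%) among 1013 intervals with both gaps under 100 kb and the smaller at least 10 kb. It was 3.92% (3.08 to 4.92%) among 1835 intervals with a smaller gap of 1 to 10 kb, and 4.81% (3.78 to 6.03%) among 1476 intervals with less than 1 kb to the next. The share rose through these 5 classes in the order given, but the binomial intervals of neighbouring classes overlapped. The classes at 2.51% and 3.65% have the same limits for the smaller gap, 10 to 100 kb, and differ in the larger one. Smaller gaps inside these classes were not compared, so whether their order follows distance to the next interval was not tested. The binomial interval of isolated peaks (1.31 to 2.72%) lay below that of the class with less than 1 kb to the next (3.78 to 6.03%). Median width did not follow the same order beyond the closest class, at 3989.5 bp for isolated peaks, 3996, 4097 and 3942 bp for the classes between, and 3451 bp for intervals with a neighbour under 1 kb away. When intervals of at most 20 kb were sorted by width into 10 equal classes, the narrowest class (122 to 1463 bp) had 16.4% isolated (13.9 to 19.2%), the lowest of the 10, and the sixth class (3880 to 4746 bp) had 23.9% (20.9 to 27.03%), the highest.

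Among isolated peaks, width was a little larger where the smaller gap was wide. The median width was 3627 bp (95% order-statistic interval 3323 to 4015) for 539 peaks whose smaller gap was 100 to 150 kb. It was 4096.5 bp (3705 to 4429) for 578 peaks with 200 to 500 kb and 4747.5 bp (4396 to 5444) for 182 peaks with 500 to 1000 kb. The 56 peaks with 1000 to 2000 kb had a median of 5037.5 bp (3479 to 5913) and the 13 with more had 3861 bp (2204 to 7406), both with intervals that take in the classes below. Across the 1610 members the relation was weak, with Spearman's rho of 0.08 and Pearson's r of 0.09 on log values. Members share chromosomes and gaps, and these coefficients are descriptions.

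The narrowest and the widest members mostly had smaller gaps between the quartiles of all isolated peaks, 135 and 363 kb. The narrowest peak, 545 bp of chromosome 14 (92385126 to 92385670), had gaps of 489 and 332 kb, and another of the 5 narrowest, 669 bp wide (90384613 to 90385281), lay on the same chromosome. The others among the 5 narrowest were on chromosome 2 (176829601 to 176830157, 557 bp), chromosome 7 (130443138 to 130443779, 642 bp) and chromosome 1 (208461811 to 208462455, 645 bp). The widest, 19903 bp of chromosome 2 (45933701 to 45953603), had gaps of 281 and 340.4 kb. Next came another on chromosome 2 (170361205 to 170380894, 19690.0 bp) and one on chromosome 5 (132488730 to 132508165, 19436 bp). Of the 5 widest, only the fourth, 19359 bp of chromosome 14 (66489189 to 66508547), had over 1 Mb on either side, 1.05 and 1.01 Mb. The fifth, on chromosome 5 (73431885 to 73451027, 19143 bp), had 137 kb on one side and 1.22 Mb on the other.

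The gaps around isolated peaks were broad and uneven. The smaller gap had a median of 203 kb (95% order-statistic interval 196 to 212), quartiles of 135 and 363 kb and a highest value of 3.38 Mb. The larger gap had a median of 579 kb (541 to 620.3), quartiles of 313 and 1205 kb and a highest value of 21.7 Mb. From one neighbour to the other, across the peak, the median distance was 827 kb. The larger gap was at least 2 times the smaller in 888 peaks (55.2%) and at least 5 times in 303 (18.8%), while in 427 (26.5%) the gaps differed by less than 1.5 times. A typical isolated peak was therefore nearer to one neighbour than to the other. The larger gap lay on the side of higher coordinates in 826 of 1610 peaks (51.3%, 48.8 to 53.8%), an interval that includes an even split. Gap sizes on either side went together only weakly (Spearman's rho 0.13, Pearson's r 0.13 on log values, n = 1610, neighbours sharing gaps).

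**Figure D2:**
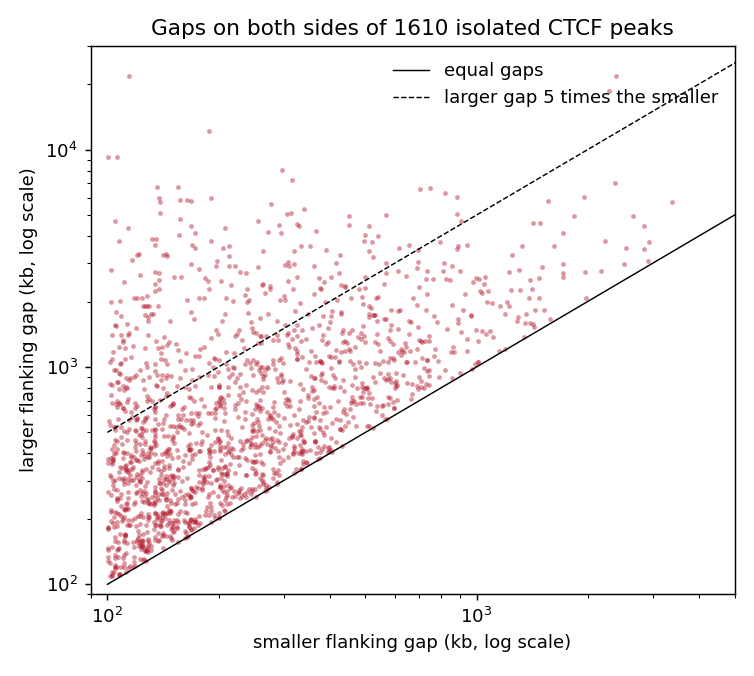
Smaller flanking gap (x axis, kb, log scale) against larger flanking gap (y axis, kb, log scale) for each of 1610 isolated CTCF peaks; the solid line marks equal gaps and the dashed line a larger gap 5 times the smaller. Points crowd at the left edge, where 539 peaks have a smaller gap of 100 to 150 kb, and 303 peaks lie on or above the dashed line.

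The most isolated peak of all was on chromosome 3 (179315255 to 179325087), 9833 bp wide, with 5.76 Mb empty before it and 3.38 Mb after it. Chromosome 9 had the next (104494052 to 104498025), 3974 bp wide, between gaps of 2.93 and 3.77 Mb. Chromosome 2 had the third and the fourth, one of 5476 bp (138824082 to 138829557) between gaps of 2.91 and 3.08 Mb and one of 2438 bp (227502538 to 227504975) between 2.85 and 3.48 Mb. These peaks were the only intervals of the list in windows of several megabases, and their widths ran across the ordinary range. Chromosome 10 (55628249 to 55631664) and chromosome 16 (61296071 to 61299931) followed with widths of 3416 and 3861 bp and smaller gaps of 2.84 and 2.65 Mb. The seventh, on chromosome 1 (104979589 to 104980737), was just 1149 bp wide, and the eighth, on chromosome 15 (37096763 to 37106812), was 10050.0 bp wide, with smaller gaps of 2.55 and 2.51 Mb. The last of the 10, on chromosome 9 (41083641 to 41085662) and chromosome 5 (24621695 to 24625528), had smaller gaps of 2.39 and 2.37 Mb.

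On each other chromosome the most isolated peak had a smaller gap below these. It was 2.23 Mb on chromosome 8 (113435613 to 113437816), 1.98 Mb on chromosome 20 (6764885 to 6767862) and 1.72 Mb on chromosome 14 (26158013 to 26167099). It was 1.48 Mb on chromosome 12 (127288855 to 127295005), 1.30 Mb on chromosome 7 (13988107 to 13994019) and 1.29 Mb on chromosome 17 (71460595 to 71462350). Chromosome 11 came last, at 682 kb (4539312 to 4542158). So the chromosome with the lowest share of isolated peaks also had the least isolated leading peak, and every other chromosome of the 15 held at least 1 peak with more than 1 Mb empty on either side.

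Isolated peaks stood at the edge of most of the largest empty stretches, as they did for most gaps of at least 100 kb. Of 24 gaps of at least 5 Mb, 22 had an isolated peak on at least one side and 8 on both. Of 457 gaps of at least 1 Mb, 380 had one on at least one side. An interval next to a wide gap already meets the rule on that side, so these counts are partly set by it. Of all 3164 gaps of at least 100 kb, 2320 had an isolated peak on at least 1 side and 900 on both. The widest gap, 21.7 Mb of chromosome 9 (41085663 to 62802397), had isolated peaks on both sides, 2022 bp wide before it and 3848 bp after it (62802398 to 62806245). The next, 18.5 Mb of chromosome 1 (125184388 to 143701051), began after an isolated peak of 7406 bp (125176982 to 125184387). The third, 12.2 Mb of chromosome 16 (34587898 to 46825690), ended at one of 1598 bp (46825691 to 46827288). Chromosomes 1, 9 and 16 are known for large blocks of repeated, compact chromatin next to their centromeres, but the position of centromeres and of sequence that reads cannot be placed on was not analysed here. All gaps together came to 2030.01 Mb, of which 1544 Mb (76.04%) lay beside an isolated peak. Gaps of at least 100 kb, with or without an isolated peak beside them, held 93.8% of the gap length.

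Chromosomes differed in the share of their intervals that was isolated. It was highest on chromosome 8, at 106 of 289 intervals (36.7%, exact 95% interval 31.1 to 42.5%), followed by chromosome 10 at 29.2% (24.5 to 34.2%), chromosome 2 at 28.1% (24.7 to 31.6%) and chromosome 5 at 27.2% (23.3 to 31.5%). The interval of chromosome 8 overlapped those of these followers. The share was lowest on chromosome 11, at 88 of 898 (9.80%, 7.93 to 11.9%), chromosome 17, at 64 of 579 (11.1%, 8.62 to 13.9%), and chromosome 16, at 67 of 493 (13.6%, 10.7 to 16.9%). The intervals of these lowest values overlapped, while the interval of chromosome 8 lay above that of each of them. Such intervals cover counting error only, and differences between chromosomes were not tested. Over the 15 chromosomes the share was 21.6% ± 7.40 (SD).

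The share followed how crowded a chromosome was. Chromosome 8 had the lowest density of all CTCF intervals, 2.09 per Mb of the span from its first to its last interval, and chromosomes 17 and 11 the highest, 7.06 and 6.68 per Mb. Across the 15 chromosomes share and density had a Spearman's rho of -0.95 and a Pearson's r of -0.93, a description in which both measures are made from the same intervals. The number of isolated peaks per length was far more even. It ran from 6.55 per 10 Mb on chromosome 11 to 9.75 on chromosome 14, a 1.49-fold range with a coefficient of variation of 11.5%, while the density of all intervals had a 3.37-fold range and a coefficient of variation of 36.8%. Chromosome 8, first by share, had 7.68 isolated peaks per 10 Mb, and chromosome 17, near the bottom by share, had 7.81. Chromosomes with many intervals thus had more crowded ones and about as many isolated ones per length. The gap rule itself ties the number of isolated peaks to density, since crowding leaves fewer gaps of 100 kb. How much of this evenness the rule sets was not tested.

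**Figure D3:**
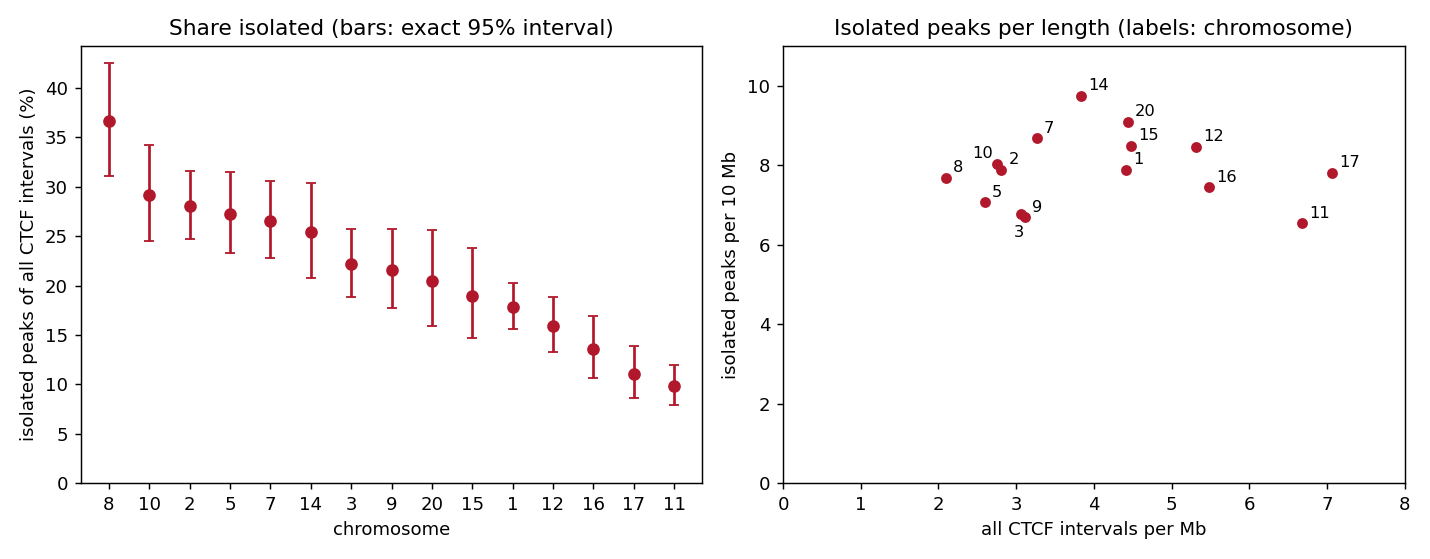
Left, the share of CTCF intervals that is isolated (y axis, %, with exact 95% binomial interval) on each of the 15 chromosomes (x axis, in falling order). Right, isolated peaks per 10 Mb (y axis) against all CTCF intervals per Mb (x axis), with a point per chromosome; the points stay between 6.55 and 9.75 while density runs from 2.09 to 7.06.

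Width and gap of the isolated peaks also differed by chromosome. The median width ran from 2935 bp on chromosome 10 (95% order-statistic interval 2483 to 3492) to 4719 bp on chromosome 3 (3877 to 5473). Chromosomes 11, 16, 17 and 1 were also at the narrow end, with medians of 3255, 3217, 3293.5 and 3477 bp. The other intervals of chromosome 10 were narrow as well, at 3346.5 bp, and those of chromosome 3 broad, at 4699 bp. On chromosome 11 the isolated peaks were the wider set, at 3255 bp against 2673 bp, and on chromosome 12 the narrower, at 4156.5 bp against 4833 bp. The median smaller gap was between 153 kb on chromosome 20 and 275 kb on chromosome 8.

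Other intervals were also counted in windows around each peak. The windows take in the gaps that define isolation, so the difference between the sets is partly set by the rule. Within 1 Mb of its midpoint an isolated peak had a median of 6 other intervals (quartiles 3 and 11), against 16 (9 and 26) for the other intervals of at most 20 kb. Within 5 Mb the medians were 32 for isolated peaks and 59 for the other intervals, and no isolated peak had fewer than 3 other intervals in that window. In 72 isolated peaks (4.47%, exact 95% interval 3.52 to 5.60%) no other interval had its midpoint within 1 Mb. Among the other 6185 this was so for 1, and there the rule leaves almost no room for it, since all but those at chromosome ends have a neighbour under 100 kb away. Some isolated peaks lay in crowded country. The highest count within 1 Mb was 60 other intervals, against a highest of 81 for the others.

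Isolated peaks were often next to each other. Of their 3220 sides, 1800 (55.9%) faced another isolated peak, 1360 (42.2%) faced another interval of at most 20 kb and 60 (1.86%) faced a wider one. By peak, 518 (32.2%) had isolated peaks on both sides, 764 (47.5%) on one side and 328 (20.4%) on neither. Neighbours share the gap between them, so an interval beside an isolated peak meets the rule on that side by construction. Over all 7978 gaps between neighbouring intervals, 3164 were at least 100 kb, so the remaining side often meets the rule too. The 55.9% is therefore not comparable with the 20.1% of all intervals that were isolated, and clustering was not tested. The 1282 peaks with at least 1 isolated neighbour formed 382 runs, in which every interval of the list in sequence was isolated. Runs of 5 or more numbered 64 and held 467 peaks, and 9 runs of 10 or more held 123.

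The longest run had 20 isolated peaks over 18.02 Mb of chromosome 8 (12523466 to 30540337). Its inner gaps ran from 126.1 kb to 4.48 Mb with a median of 582 kb, and its peaks covered 0.914% of the stretch. They were 2213 to 14926 bp wide, with a median of 8429.5 bp, above the upper quartile of 6548.5 bp of all isolated peaks. Chromosome 5 held the next, of 16 peaks each. One spanned 11.4 Mb (79508475 to 90870734) with a median inner gap of 319 kb and a median width of 3506 bp. The other spanned 8.47 Mb (50746830 to 59220294) with a median inner gap of 436 kb and a median width of 4618.5 bp. Spacing inside these runs was irregular, with inner gaps up to 3.61 Mb in the one and 1.33 Mb in the other against lowest values of 105 and 125 kb.

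**Figure D4:**
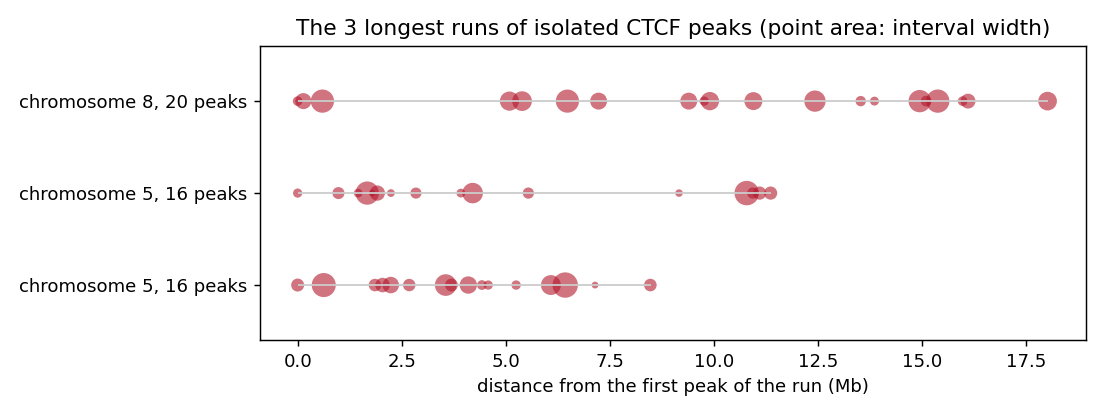
The 3 longest runs of consecutive isolated CTCF peaks, drawn by distance from the first peak of the run (x axis, Mb); each point is a peak and its area stands for interval width. The run of 20 peaks on chromosome 8 extends over 18.02 Mb with its longest empty stretch, 4.48 Mb, near its start, and both runs of 16 peaks are on chromosome 5.

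Pooled over the 15 chromosomes, the share of isolated peaks was lower near the first and last interval of a chromosome. Distance and chromosome are mixed in this comparison. The first and last intervals need not lie close to the ends of the chromosome itself, and that distance was not measured. Within 5 Mb of the first or last interval of a chromosome, 118 of 784 intervals were isolated (15.1%, exact 95% interval 12.6 to 17.7%). The share was 19.2% (17.5 to 21.1%) from 5 to 20 Mb, 20.8% (19.4 to 22.4%) from 20 to 50 Mb and 21.6% (20.01 to 23.4%) beyond 50 Mb. The outer 5 Mb had the lower share on just 8 of 15 chromosomes. It was 5.08% against 30.4% further in on chromosome 5, and 64.7% of 17 intervals against 20.9% further in on chromosome 3. The pooled difference was therefore not shared by all chromosomes. Isolated peaks of the outer 5 Mb had a median width of 3137.5 bp, against 4288 bp for those beyond 50 Mb, and these medians mix chromosomes in the same way.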

How the data were processed

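Per the labels' protocols, genomic DNA of HEK293T cells carrying CTCF-DamN126A (2 samples) or DamN126A (1 sample) was dephosphorylated, cut with DpnI, A-tailed, purified and read by Nanopore sequencing. Tools listed in the submitters' processing notes are minimap2, SAMtools, bedtools and deepTools, with no versions or roles, and hg38 stands there as the human build. The peak caller, its thresholds and any pooling of samples are not stated in those sources. The authors deposited the CTCF peaks as interval coordinates with no other value, so a weak and a strong peak count alike, and a gap can be a place without binding, without reads or below the caller's threshold. Since HEK293T is a human line, coordinates were read as hg38.

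No intervals overlapped, and 40 pairs in the whole list abutted. Gaps count the bases between neighbouring intervals of any width. The first and last interval of a chromosome have 1 gap and were not called isolated. Loci named are the 10 most isolated peaks, the 5 narrowest and 5 widest, the most isolated of each chromosome, the 3 longest runs and the 3 intervals on each side of each limit. The peaks beside the 3 widest gaps were named after their values were seen. The members and measures were chosen with earlier results of these data known. No test was run, as the list has no samples to compare. The rule was checked on simulated intervals. Alternatives changed the width limit, gap, neighbours, joining, chromosomes, treatment of chromosome ends and window. The tools were matplotlib 3.10.9, scipy 1.17.1, pandas 2.3.3, numpy 2.4.6 and Python 3.11.15.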

Additional observations from a re-analysis of the deposited data

How the results depend on the processing

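The gap that defines isolation moved the most values. With 50 kb there were 2528 isolated peaks, 31.6% of intervals, with a median smaller gap of 129 kb. With 200 kb there were 829, 10.4% of intervals, with a median smaller gap of 356 kb, a median width of 4349 bp, 527.5 bp above other intervals, and 207 runs of 2 or more. A width limit of 10 kb gave a share of 18.04% and a median width of 3555 bp. Joining intervals closer than 5 kb gave 28.4%, a median width of 4406.5 bp and a width difference of -538.5 bp. Counting as neighbours just the intervals of at most 20 kb gave 21.2%, and chromosomes 1 to 22 and X gave 19.2%. Within 5 Mb, isolated peaks had a median of 3.2 other intervals per Mb, against 3.0 within 1 Mb. Runs were recomputed in each alternative by a choice made after seeing the data. No paired analysis was possible because the list carries no per-sample values, and for the same reason no replicate could be left out. What depth limits is unknown, as no counts accompany the list.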

Other observations

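Outside the 15 chromosomes the same limits on width and gap were met by 490 of 2919 intervals (16.8%, exact 95% interval 15.4 to 18.2%). The share was 47.6% on chromosome 4 (40.7 to 54.6%), 40.5% on chromosome 21 (25.6 to 56.7%, 17 of 42 intervals) and 37.8% on chromosome 18 (28.8 to 47.5%), and it was 4.02% on chromosome 22 (2.50 to 6.07%) and 4.33% on chromosome 19 (2.92 to 6.17%). Chromosome X had 19.9% (16.2 to 24.1%), chromosome 13 had 29.3% and chromosome 6 had 18.8%.

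Of the 32 intervals on the 15 chromosomes that were wider than 20 kb and still had 100 kb empty on either side, the widest was 2304162 bp of chromosome 5 (47306456 to 49610617), between gaps of 2.77 and 1.14 Mb. Its place relative to centromeres and to sequence that reads cannot be placed on was not analysed. The next widest of the 32 was far narrower, 92517 bp of chromosome 3 (76696379 to 76788895). Chromosome 3 held 2 narrower ones nearby, 54001 bp (77032895 to 77086895) and 54471 bp (78975350 to 79029820), the last of them before an empty stretch of 5.91 Mb. Another, 73368 bp of chromosome 8 (12214633 to 12288000), lay 235 kb before the first peak of the run of 20 isolated peaks.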
